A study of Danio rerio with 12 samples.

Results

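The genes of ciliary transport were followed in eye RNA of zebrafish with and without a working lrpap1 gene. They were taken from the deposited gene table by name, as every gene whose symbol starts with ift or bbs and a number, with bbip1, arl6, mkks, kif3a, kif3b, kif17, dync2h1, dync2li1, traf3ip1 and cluap1, which gave 30 of the 37055 genes in the table. The remaining name of the rule, ttc8, was not analysed here. There were 6 eye samples of homozygous lrpap1-/- fish (mutant) and 6 of wild-type fish, all at 3 months. The methods speak of 12 pairs of eyeball samples, and each sample is read here as the pair of 1 fish. Whether eyes of several fish were pooled is not stated. The mutants belong to a single stable line with a CRISPR/Cas9 frameshift in the first exon of lrpap1, which encodes a chaperone of the low density lipoprotein receptor family. The mutation is in the germline and so is not limited to the eye, and the labels name no other allele or treatment in either group.

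A cilium has no ribosomes of its own, and its proteins are carried along the axoneme by trains of intraflagellar transport (IFT) proteins. Kinesin moves the trains outward and a dedicated dynein moves them back. IFT-B proteins form the backbone of the train and IFT-A proteins bind to it, while the BBSome, a complex of Bardet-Biedl syndrome (BBS) proteins, links membrane proteins to the moving train and removes them from the cilium. In the retina the outer segment of a rod or cone is a modified cilium, and loss of IFT or BBS proteins is a known cause of photoreceptor degeneration.

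Between 7996647 and 9780310 reads were counted per mutant sample and between 7988538 and 9829112 per wild-type sample. Levels within a gene are given as CPM (counts scaled to the same effective library size by the TMM method), and levels between genes as TPM, which also divides by gene length. The targeted gene fell, with 144 to 201 counts of lrpap1 in mutant and 214 to 273 in wild-type eyes (log2 fold change -0.52, standard error 0.11, adjusted p = 0.0108, edgeR). By qRT-PCR the paper saw only a slight decrease of lrpap1 RNA that was not significant, while its Western blots of eyes showed much less Lrpap1 protein. The rod opsin gene rho, which marks the labelled tissue, was between 19920 and 29272 TPM in mutant and between 16380 and 28664 TPM in wild-type eyes. Wild-type fish 3 stood apart: crystallin genes of the lens made up 0.132% of its TPM, against 12.4% to 20.4% in the other 11 samples. Of the 30 ciliary genes, 17 had their highest wild-type CPM in this fish, and results for the ciliary genes are therefore also given without it. In whole eyes, fewer ciliated cells and less RNA per cell cannot be told apart.

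Every one of the 30 genes had reads in every sample, and their levels spanned a wide range. bbip1, the smallest subunit of the BBSome, was the most abundant, with 65.6, 76.7 and 86.2 TPM (lowest, median and highest) in mutant eyes and 71.9, 79.5 and 108 TPM in wild-type eyes. kif17, a homodimeric kinesin, was the least abundant, with 0.073, 0.382 and 0.832 TPM in mutant and 0.0691, 0.269 and 0.457 TPM in wild-type eyes, which rested on 1 to 12 and 1 to 7 counts. It was the only gene of the 30 left out by the filter on low counts. Next below bbip1 in the wild-type order came bbs4, arl6, ift74 and kif3a, with medians of 52.5, 41.3, 35.4 and 35.3 TPM. The order then descended in small steps through the BBSome subunits and the IFT-B genes to dync2li1, at 5.98 TPM. The genes of the BBSome chaperones, bbs10, bbs12 and mkks, lay lower still, with wild-type medians of 2.52, 2.01 and 1.15 TPM.

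Most neighbours in this order did not differ beyond their spread. Of the 29 neighbouring pairs, 3 had wild-type ranges that did not overlap, namely bbip1 above bbs4, dync2li1 above bbs10, and mkks above kif17. Summed over the 30 genes, the level was between 462 and 584 TPM in mutant eyes (median 538) and between 502 and 719 TPM in wild-type eyes (median 560). The highest sum, 719 TPM, was that of wild-type fish 3, and without it the highest wild-type sum was 619 TPM.

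**Figure D1:**
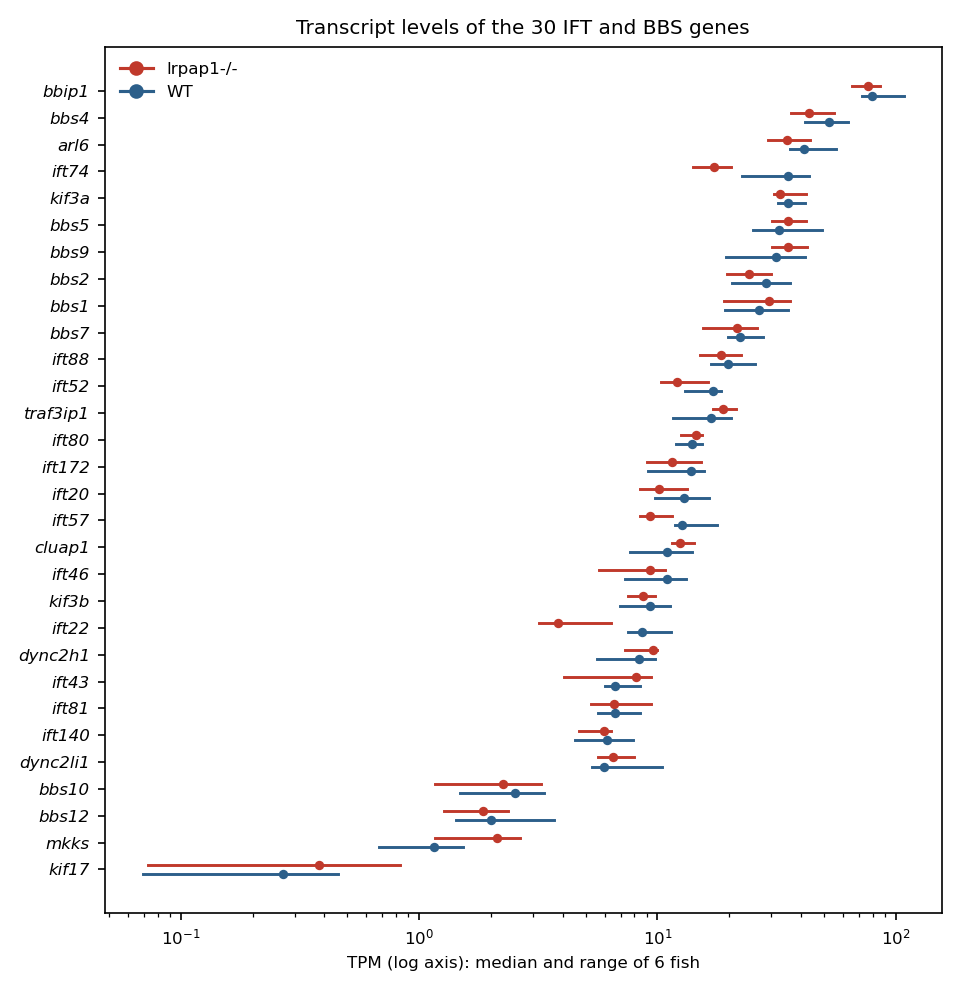
TPM of each of the 30 genes on a log axis, as the median (point) and range (line) of 6 lrpap1-/- fish (red, upper) and 6 WT fish (blue, lower), ordered by the WT median. The levels run from 79.5 TPM for bbip1 to 0.269 TPM for kif17 in WT eyes, and the lines of ift74, ift57 and ift22 do not overlap.

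To ask whether ciliary transport genes changed in the mutants, the whole table was fitted with edgeR's quasi-likelihood test. Adjusted p values are Benjamini-Hochberg values over the 18984 genes with enough counts. A gene is said to fall or rise at an adjusted p under 0.05. Of the 29 ciliary transport genes tested, 5 fell in the mutants, none rose, and 24 did not pass. That is 17.2% of the ciliary genes, where over all genes tested 11.2% passed in either direction, 4.27% lower and 6.92% higher in the mutants. The genes that fell were ift74, ift22, ift57, ift52 and arl6. Of the 12 IFT-B genes tested 4 fell, and of the 17 other genes of the set tested 1 fell. With the fold change of the methods as well (over 1 on the log2 scale), ift74 and ift22 passed, where 4.55% of all genes did so in either direction and 0.874% downward.

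Over all 29 genes tested, the 5 that fell included, the estimates leaned toward lower levels in the mutants. This lean was uneven among the mutants. As a score per fish, log2(CPM + 1) relative to each gene's mean over 12 fish was averaged over the 29 genes. The score was -0.22, -0.18 and -0.24 in mutant fish 1, 2 and 3. In mutant fish 4, 5 and 6 it was 0.02, -0.02 and -0.02, and in wild-type fish it ran from -0.05 to 0.34. The log2 fold change was negative for 23 of the 29 genes (79.3%) with a median of -0.23, while over all genes tested 52.6% were negative with a median of -0.02. Some other lists leaned as much, with 81.5% of cargo adaptor and small GTPase genes of the cilium negative and 82.6% of transition zone genes. So did 77.8% of cone markers, 80% of markers of Müller glia and pigment epithelium, 93.3% of lens markers and 92.3% of eye muscle markers. Others leaned less: further IFT, motor and BBS-associated genes (68.4%), rod markers (66.7%), outer segment structure genes (62.5%), RFX factors (57.1%) and motile cilium genes (50%). Of macrophage and leukocyte markers, 13.3% were negative. At an unadjusted p under 0.05, 12 of the 29 genes passed, the 5 that fell included. Of the 12, mkks passed upward and the other 11 downward (13% of all genes were lower at that level). Without wild-type fish 3 the lean was smaller, with 20 of 29 genes negative and a median of -0.16. Over all genes these values were 50.2% and -0.0019 without this fish. In that fit ift74, ift22 and ift57 alone passed, where 3.26% of all genes tested passed as lower in the mutants. In 3 genes (10.3%) the CPM ranges of the genotypes did not overlap, all of them lower in the mutants, against 5.83% of all genes tested in either direction and 2.14% downward.

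**Figure D2:**
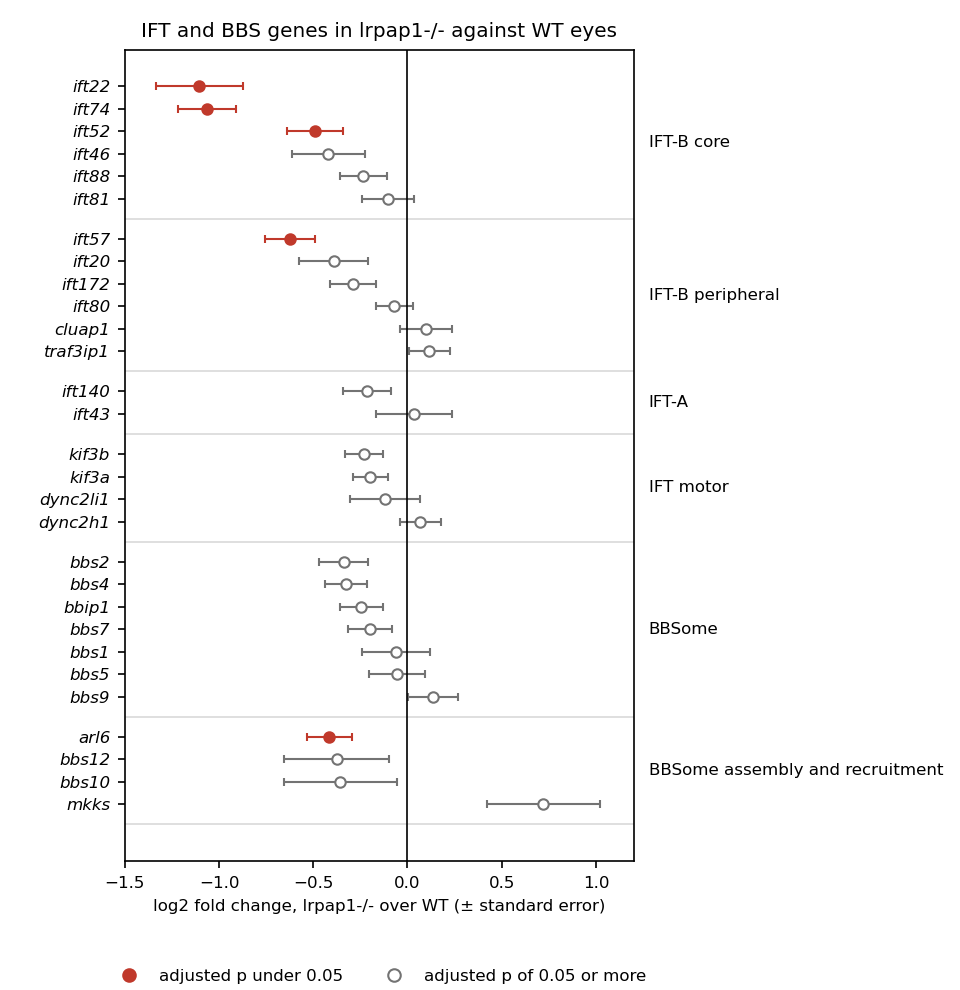
log2 fold change of mutant (lrpap1-/-) over WT eyes with its standard error for the 29 genes tested, grouped by role. Filled red points, at ift22, ift74, ift52, ift57 and arl6, have an adjusted p under 0.05 with edgeR, and open grey points do not. ift22 and ift74 lie furthest left, at -1.10 and -1.07, and mkks furthest right, at 0.72.

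The IFT-B core is the part of the train built around the IFT74 and IFT81 coiled coils. Of its 6 genes in the set, 3 fell, where 4.27% of all genes tested did so. All 6 estimates were negative (median -0.46). Core genes that carry other symbols are outside this count and are given further below. ift74 (chromosome 5, 453791 to 478811 of GRCz11, forward strand), whose protein pairs with IFT81 to bind tubulin, had the smallest p of all 30 genes. It was measured at 20.1, 25.3 and 30.5 CPM (lowest, median and highest) in mutant eyes and at 36.95, 58.9 and 63.6 CPM in wild-type eyes. All 6 mutants lay below all 6 wild-type fish, and within the wild type, fish 2 (40.8 CPM) and fish 5 (36.95 CPM) lay below the other 4. The means were 25.7 ± 3.94 CPM in mutants and 53.7 ± 11.9 CPM in wild type (SD, n = 6 each), a level 52.2% lower in the mutants. The fold change on the log2 scale was -1.07 (standard error 0.15, adjusted p = 0.00083, edgeR), and it stayed between -1.13 and -0.98 with each fish left out in turn.

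ift22 (chromosome 5, 30702093 to 30704390, reverse strand) encodes a small GTPase-like subunit that docks on the IFT74 and IFT81 pair. It was low, with 14 to 28 counts in mutant and 37 to 51 counts in wild-type eyes. Its values were 1.46, 1.91 and 3.07 CPM in mutants against 3.80, 4.60 and 5.69 CPM in wild type, again with no overlap. This gave -1.10 on the log2 scale (standard error 0.23, adjusted p = 0.00873, edgeR), 53.5% lower in the mutants. ift52 (chromosome 11, 1533097 to 1546015, forward strand), a scaffold subunit that joins IFT88 to the rest of the core, was at 10.7, 12.2 and 16.2 CPM in mutants and 13.1, 18.6 and 22.5 CPM in wild type. Here the ranges overlapped: wild-type fish 5 (13.1 CPM) lay below mutant fish 4 (15.6 CPM) and mutant fish 6 (16.2 CPM). Its log2 fold change of -0.49 (standard error 0.15) passed narrowly (adjusted p = 0.0465, edgeR). With 1 fish left out at a time the call was lost in 9 of 12 cases, all but those without wild-type fish 5, mutant fish 4 or mutant fish 6, with adjusted p values of up to 0.111.

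The other core genes of the set did not pass. ift81, the partner of ift74, was at 8.78, 10 and 13.8 CPM in mutants and 9.79, 11.4 and 13 CPM in wild type, with an estimate of -0.10 (standard error 0.14, adjusted p = 0.683, edgeR). ift46, which binds IFT52, had an estimate of -0.42 (standard error 0.19) and ift88, a subunit whose loss in zebrafish is known to cause photoreceptors to degenerate, of -0.23 (standard error 0.12), with adjusted p values of 0.180 and 0.243 (edgeR).

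**Figure D3:**
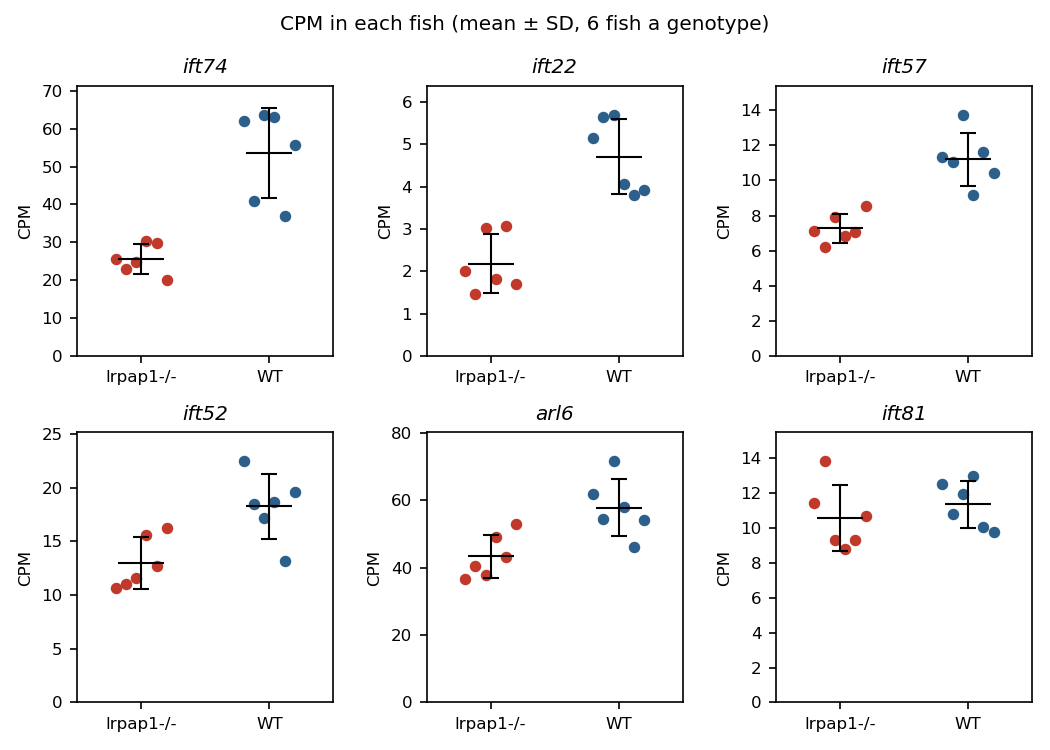
CPM in each fish (points) with mean and SD (black) for the 5 genes that fell and for ift81, the partner of ift74, lrpap1-/- (red) left of WT (blue). The genotypes do not overlap for ift74, ift22 and ift57, they overlap for ift52 and arl6, and ift81 lies at 8.78 to 13.8 CPM in lrpap1-/- eyes and 9.79 to 13 CPM in WT eyes.

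Among the peripheral IFT-B genes, whose proteins contact the kinesin and membrane cargo, 1 of 6 fell, where 4.27% of all genes tested did so. ift57 (chromosome 2, 42200413 to 42210485, forward strand), a coiled-coil subunit that binds IFT20, was at 6.23, 7.08 and 8.52 CPM in mutants and 9.15, 11.2 and 13.7 CPM in wild type. The 2 ranges did not overlap, and the mean was 35.1% lower in the mutants (log2 fold change -0.62, standard error 0.13, adjusted p = 0.00853, edgeR). The whole of ift57 lies within the span of efr3a on the same strand, so reads of a shared stretch could have been given to either gene. efr3a itself, at 253 ± 51.9 CPM in mutants and 263 ± 24.4 CPM in wild type (SD, n = 6 each), had a log2 fold change of -0.06 (adjusted p = 0.819, edgeR). ift20, which also works at the Golgi in the export of ciliary membrane proteins, had an estimate of -0.39 (standard error 0.18, adjusted p = 0.184, edgeR). ift172 (-0.29), ift80 (-0.07), cluap1 (0.10) and traf3ip1 (0.12) did not pass, and the last pair had positive estimates.

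Of the IFT-A genes, ift140 had an estimate of -0.21 (standard error 0.13) and ift43 of 0.04 (standard error 0.20), with adjusted p values of 0.298 and 0.932 (edgeR). A second gene described as an IFT43 homolog, LOC101882760, lies next to ift43 on chromosome 17 (52118471 to 52121083), so reads could have been divided between the copies. It had 4 to 17 counts in mutants and 10 to 21 in wild type (adjusted p = 0.461, edgeR).

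None of the 4 motor genes tested passed. kif3a and kif3b encode the motor subunits of the heterotrimeric kinesin that drives trains outward. kif3a was at 48.1, 51.6 and 65.0 CPM in mutants and 53.3, 61.6 and 69.0 CPM in wild type, with an estimate of -0.20 (standard error 0.09, adjusted p = 0.185, edgeR), and kif3b had -0.23 (standard error 0.10, adjusted p = 0.149, edgeR). The retrograde dynein was measured through its heavy chain gene dync2h1 (0.07, standard error 0.11) and its light intermediate chain gene dync2li1 (-0.12, standard error 0.18). Without wild-type fish 3, which had 8.04 CPM of dync2li1 against 4.47 to 5.17 CPM in the other wild-type fish, the estimate of dync2li1 was 0.06.

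The BBSome genes were the most abundant of the set, with summed levels of 224 to 305 TPM in mutants and 229 to 355 TPM in wild type. None of the 7 subunit genes passed, and their estimates lay between -0.34 and 0.13. bbs4, a scaffold subunit, came nearest, at 46.0, 51.7 and 73.3 CPM in mutants and 62.0, 70.6 and 80.4 CPM in wild type. Its estimate was -0.33 (standard error 0.11, adjusted p = 0.0748, edgeR), and the ranges overlapped through mutant fish 4, at 73.3 CPM, and mutant fish 6, at 62.3 CPM. Without mutant fish 4 the estimate was -0.40 (adjusted p = 0.0189, edgeR), and that of bbs2 was -0.41 (adjusted p = 0.0359, edgeR) against -0.34 (adjusted p = 0.106, edgeR) with all 12. bbip1 (-0.25), bbs7 (-0.20), bbs1 (-0.06), bbs5 (-0.05) and bbs9 (0.13) had adjusted p values between 0.185 and 0.866 (edgeR).

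arl6 (chromosome 1, 34203870 to 34233940, forward strand) encodes the small GTPase that recruits the BBSome to membranes. It was at 36.5, 41.8 and 52.9 CPM in mutants and 46.3, 56.4 and 71.6 CPM in wild type, and 4 of 6 mutants lay below every wild-type fish. This gave -0.42 on the log2 scale (standard error 0.12, adjusted p = 0.0376, edgeR), 25.0% lower in the mutants. With 1 fish left out at a time this call too was lost in 9 of 12 cases, all but those without wild-type fish 5, mutant fish 4 or mutant fish 6, with adjusted p values of up to 0.0916. The chaperonin-like genes bbs10, bbs12 and mkks, which help to assemble the BBSome, did not pass. mkks was the gene with the highest estimate of the set, 0.72 (standard error 0.30, adjusted p = 0.136, edgeR), from 12 to 25 counts in mutants and 8 to 16 in wild type.

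Exact permutation tests of log2(CPM + 1) over the 924 assignments of 6 of the 12 fish (two-sided) gave p = 0.00216 for ift74, ift22 and ift57 each, the smallest p possible. For arl6 and ift52 the same exact permutation test gave p = 0.0108 and p = 0.013. These genes had been chosen by the edgeR fit of the same values, and the permutation p values are not adjusted for that choice. Where the genotypes do not overlap, the smallest p follows from the lack of overlap and adds nothing to it.

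**Figure D4:**
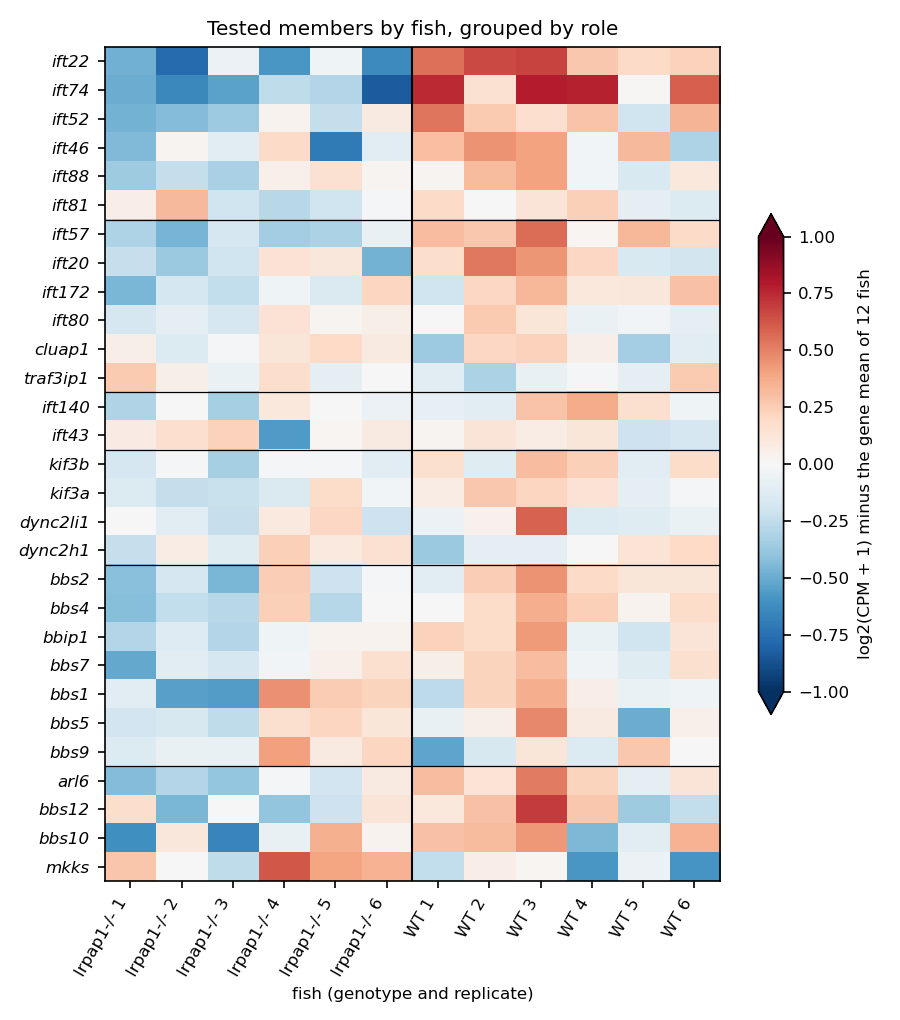
log2(CPM + 1) of the 29 genes tested in each fish, relative to the gene's mean over 12 fish, with the 6 lrpap1-/- fish left of the 6 WT fish and genes grouped by role in the order IFT-B core, IFT-B peripheral, IFT-A, motors, BBSome, and BBSome assembly and recruitment. Red is above and blue below the mean. The genotypes are separate in the rows of ift22, ift74 and ift57 and overlap in every BBSome row, and 17 of the 30 genes had their highest WT value in WT fish 3.

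The proteins of a complex are built in fixed proportions, but their RNA need not be, and these proteins were not measured here. RNA levels of known partners were also compared within each fish, as the ratio of reads per base. Such a ratio does not depend on how samples are scaled to each other. The 7 ratios were chosen after the fits had been seen, most of them to set a gene that fell beside a partner, so they are given as a description without a test. The ratio of ift74 to ift81 was 1.77, 2.61 and 3.69 (lowest, median and highest) in mutants and 3.90, 5.20 and 6.05 in wild type, without overlap. The mean difference on the log2 scale, mutant minus wild type, was -0.93. The ratio of ift57 to cluap1, which encodes a direct partner of IFT57, was 0.664, 0.749 and 0.870 in mutants and 0.959, 1.25 and 1.64 in wild type (log2 difference -0.74), also without overlap. The ends of cluap1 and of nlrc3-2, a gene on the other strand that rose (log2 fold change 1.02, adjusted p = 0.0202, edgeR), overlap by 302 bases, and reads there could have been given to either gene.

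The ratio of ift22 to ift81 had a median of 0.610 in mutants and 1.29 in wild type (log2 difference -1.03), and the ranges overlapped. That of ift22 to ift74, which both fell, had medians of 0.245 in mutants and 0.259 in wild type (log2 difference -0.10), with an SD of the log2 ratio of 0.40 in each genotype. The ratios of ift57 to ift20, ift52 to ift88 and arl6 to bbs1 differed by -0.24, -0.26 and -0.32 on the log2 scale, each with overlapping ranges.

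**Figure D5:**
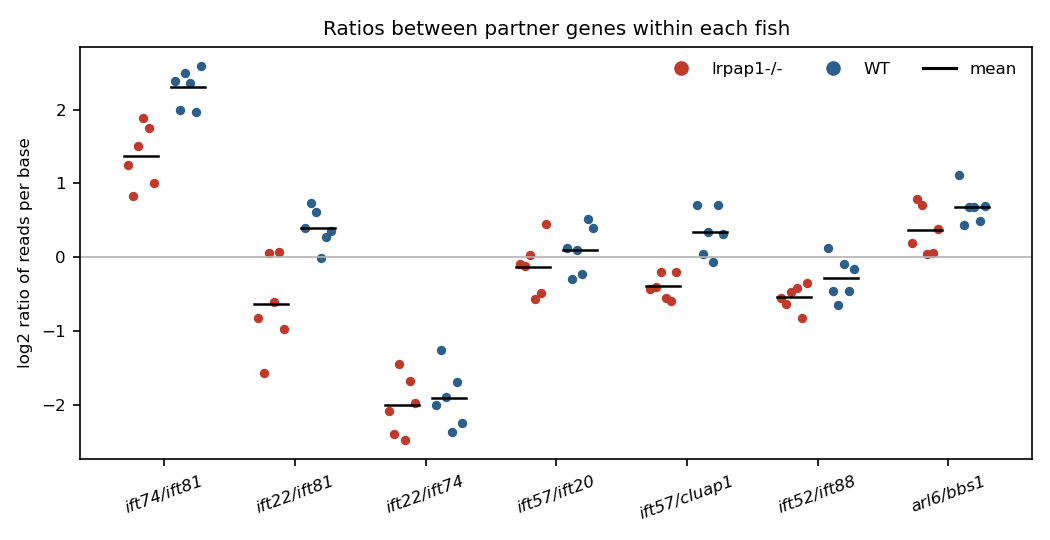
log2 ratio of reads per base between 2 partner genes in each fish (points) with the mean of the genotype (black bar), lrpap1-/- (red) left of WT (blue) for each pair. The genotypes do not overlap for ift74/ift81 and ift57/cluap1, and lie together for ift22/ift74.

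Ciliary transport genes that carry other symbols in the table were read from the same fit. Of 20 further IFT, motor and BBS-associated genes, 19 were tested and none passed with edgeR (3 at an unadjusted p under 0.05, median log2 fold change -0.12). Further genes of the IFT-B core, ttc26 (IFT56), flr (IFT70) and zgc:158640 (IFT25), had estimates of -0.12, -0.05 and -0.16. The count of core genes given above leaves them out. These names do not complete the IFT complexes, and other subunits were not analysed here. The IFT-A genes wdr19 (IFT144), wdr35 (IFT121) and ttc21b (IFT139) had 0.11, 0.14 and 0.06. wdpcp, a planar polarity effector needed for cilium assembly, came closest, at 2.77 ± 1.07 CPM in mutants and 4.93 ± 0.97 CPM in wild type (SD, n = 6 each), with an estimate of -0.83 (adjusted p = 0.0534, edgeR).

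In the transition zone, the gate at the base of the cilium, 0 of 23 genes passed with edgeR (1 at an unadjusted p under 0.05, median -0.12). Among cargo adaptors and small GTPases of the cilium 1 of 27 fell, with 9 at an unadjusted p under 0.05 and a median of -0.22. The gene that fell was arl13b, a GTPase of the ciliary membrane and exchange factor of ARL3. It was at 17.6 ± 2.38 CPM in mutants and 22.9 ± 1.61 CPM in wild type (SD, n = 6 each), which was -0.38 on the log2 scale (adjusted p = 0.0353, edgeR) and no overlap between the genotypes. Of 38 genes of motile cilia, 22 were too low to be tested, and of the 16 tested 1 rose, tekt1, which encodes a filament protein of axonemal microtubules. It was at 4.67 ± 0.67 CPM in mutants and 1.25 ± 0.43 CPM in wild type (SD, n = 6 each; log2 fold change 1.89, adjusted p = 0.000304, edgeR). Of the RFX factors, a family with members that switch on ciliary genes, rfx4 fell (log2 fold change -1.66, adjusted p = 0.0119, edgeR) from low counts of 4 to 9 in mutants and 11 to 40 in wild type. rfx5, better known for its part in the expression of MHC class II genes, rose (0.49, adjusted p = 0.0366, edgeR). The other RFX factors tested did not pass, among them rfx2 (0.69, adjusted p = 0.106, edgeR) and rfx3 (0.04, adjusted p = 0.860, edgeR). Of the 7 tested, 3 had positive and 4 negative estimates.

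Markers of ciliated and other cells of the eye were read beside these results. None of 16 outer segment structure genes passed with edgeR (5 at an unadjusted p under 0.05, median -0.07), and the same held for 12 rod markers (2 at an unadjusted p under 0.05, median -0.15). The rod markers summed to 27261 to 39394 TPM in mutants and 23890 to 41537 TPM in wild type. Of 18 cone markers 4 fell and 1 rose. The green opsin genes opn1mw1 and opn1mw2 fell and opn1mw3 rose. The others that fell were cngb3.1 (log2 fold change -0.46, adjusted p = 0.00705, edgeR) and grk7b (-0.80, adjusted p = 0.0109, edgeR). At an unadjusted p under 0.05, 8 of the 18 passed, with a median of -0.18, and the list summed to 17390 to 22863 TPM in mutants and 16836 to 27670 TPM in wild type. Of 15 markers of Müller glia and pigment epithelium 2 fell, slc1a3a and dct (median -0.10), with sums of 4131 to 5025 TPM in mutants and 3414 to 5389 TPM in wild type.

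Of 15 macrophage and leukocyte markers tested, 8 rose, such as marco, lcp1, coro1a and ptprc, and the median was 0.83. Their levels summed to 2211 to 3712 TPM in mutants and 1695 to 3061 TPM in wild type. None of 15 lens markers passed with edgeR (0 at an unadjusted p under 0.05, median -0.32), and they summed to 10013 to 13321 TPM in mutants and 127 to 19770 TPM in wild type. The lowest sum, 127 TPM, was that of wild-type fish 3, which had almost no crystallin RNA. Standard errors of the lens markers ran from 0.52 (hsf4) to 0.67 (bfsp1). With this spread the lack of a call does not show that the lens was unchanged, and lens values without this fish are not given here. Of 13 eye muscle markers tested 1 fell, acta1b (median -0.44), and the list summed to 1477 to 3206 TPM in mutants and 1252 to 3334 TPM in wild type. No marker of these lists was at 0 in all samples. The part of these shifts in the falls of the 5 ciliary genes was not tested.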

How the data were processed

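Per the labels and methods, polyadenylated RNA of 12 eye samples (6 mutant, 6 wild type) was sequenced on an Illumina HiSeq2500 and aligned to GRCz11 with HISAT2 2.1.0. The program that counted reads and its use of strand are not given in the sources used here. The authors deposited raw counts per gene, gene lengths in bases, and TPM values (counts over gene length, rescaled to the same total per sample). No columns of other samples were present.

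Counts were fitted by the quasi-likelihood method of edgeR 4.0.16 under R 4.3.3, with genotype alone in the model, low genes removed by filterByExpr and libraries scaled by TMM. The standard error is the log2 fold change over the root of F. Alternatives were DESeq2 1.42.0, limma 3.58.1, other scalings and filters, a replicate block, and each sample left out. No replicate pair was a repeated library (lowest chi-square 7.43 per degree of freedom).

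Members and lists were chosen with earlier results of these data known. List symbols were matched through RefSeq gene numbers (assembly GRCz12tu, names only). All members are accounted for. Those described fish by fish are the genes that passed and the 1 with the next smallest p, the highest and lowest by TPM, and those without overlap. Of other lists, genes that passed are named (at most 4, but every cone marker that passed), with IFT subunits, wdpcp, rfx2, rfx3, neighbours and copies added after their values were seen. A further marker list is not reported here. Promoter sequences were not used here, so a planned motif search was not run.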

Additional observations from a re-analysis of the deposited data

Results flagged for a closer look

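In 62 groups of 6 values (CPM of each ciliary gene and the summed TPM, each within a genotype), 2 held a fish far from the other 5, where about 3.1, or 1 in 20 groups, would by chance. Wild-type fish 3 had 8.04 CPM of dync2li1, against 4.47 to 5.17 CPM in the other wild-type fish. This is the fish that had almost no crystallin RNA. Mutant fish 4 had 1.94 CPM of ift43, against 3.41 to 4.12 CPM in the other mutants.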

How the results depend on the processing

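The falls of ift74, ift22 and ift57 kept their direction and passed in all 21 alternatives run for each, with adjusted p values of at most 0.00833, 0.0355 and 0.0369. The median log2 fold change of the ciliary genes stayed between -0.26 and -0.16, and the call of lrpap1 held. The number of genes that passed, 5 at the outset, was 3 with scaling by library size alone, 3 with the replicate block, 2 with the added fold change threshold, and 3 to 7 with 1 fish left out. Over all genes, 3.04% were lower with library size alone, 1.8% with the block, and 2.44% to 5.13% with 1 fish left out. The replicate numbers did not pair the fish: same-numbered fish correlated at -0.30 to 0.11 in their deviations, 1 of 6 best with its own number, so the block result is given only here. ift52 also missed with crystallins removed (adjusted p = 0.0509, edgeR) and with either other filter (0.0565 and 0.0577), and arl6 with library size alone (0.0501). DESeq2 and limma each called 5, where 5.48% and 5.31% of all genes were lower, against 4.27% in the main fit. Of 608 values of single genes, 8 changed sign, all in genes that had not passed: bbs5 was at 5.91e-05 with library size alone, and with 1 fish left out bbs5 ranged from -0.128 to 0.0682, bbs1 from -0.152 to 0.05002, dync2li1 from -0.165 to 0.0557 and ift43 from -0.0036 to 0.17. The log2 difference of ift22 to ift74 ranged from -0.21 to 0.0284. At these depths genes such as mkks, bbs10 and kif17 carry large counting errors.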

Other observations

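Both genes with the largest falls lie on chromosome 5, 30.2 Mb apart. The gene next to ift74, tek, which encodes the endothelial receptor of angiopoietins, starts 723 bases after the end of ift74 on the same strand. tek was at 20.8 ± 3.58 CPM in mutants and 44.6 ± 5.24 CPM in wild type (SD, n = 6 each), or -1.10 on the log2 scale (standard error 0.12, adjusted p = 0.000123, edgeR) with no overlap between genotypes. Of the 10 tested genes nearest to ift74, 5 on each side, tek was the only 1 that passed. Around ift57, gtpbp4, which encodes a GTPase of ribosome assembly, was the only 1 of 10 that passed. Its span starts 160960 bases after the start of ift57, with other genes between them, and it lies on the other strand. gtpbp4 was at 103 ± 8.36 CPM in mutants and 153 ± 12.3 CPM in wild type (log2 fold change -0.57, adjusted p = 0.00067, edgeR). None of the 10 around ift22 or the 10 around ift52 fell, while 3 and 2 of them rose. These neighbours were looked up after the falls had been seen.

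arl6 and arl13b, which both fell, lie 509 kb apart on chromosome 1, and arl6 lies 6.90 Mb from lrpap1 itself (41131526 to 41141443). Of the 10 tested genes nearest to arl6, arl13b fell and klf5a, which encodes a zinc finger transcription factor, rose (log2 fold change 1.92, adjusted p = 0.000133, edgeR). Within 10 Mb of lrpap1, 38 of 255 tested genes passed (14.9%), 14 of them lower in the mutants (5.49%). Within 5 Mb 25 of 134 passed (18.7%), 10 of them lower (7.46%). Over all genes tested 11.2% passed and 4.27% were lower. The 10 Mb window contains the 5 Mb window, so its shares include the genes closest to lrpap1. arl6 itself lies inside the 10 Mb window and outside the 5 Mb window. The band between the windows, where arl6 lies, was not counted apart, so these shares do not describe its surroundings. The part of sequence carried along with the mutated locus in the level of arl6 was not tested.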
